A study of Mus musculus with 6 samples.

Results

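The 10 genes described here encode proteins of classical macrophage activation and of T-cell costimulation: *Nos2*, *Cd86*, *Cd80*, *Cd40*, *Cd38*, *Fpr2*, *Socs3*, *Irf5*, *Marcks* and *Slamf1*. They were chosen by name, and all 10 were found among the 25701 genes of the count table. The libraries were made from CD11b+ cells, which were purified with magnetic beads from TC1 tumors grown under the skin of the flank in young male mice, 3 libraries of MCT2 CO and 3 of MCT2 KO. All mice carried loxP-flanked alleles of MCT2 (*Slc16a7*) and an inducible Cre transgene on a C57BL/6 background. The MCT2 KO mice received tamoxifen at 8 weeks of age and the MCT2 CO mice vehicle, after which TC1 cells, a mouse lung epithelial tumor line, grew for 24 days. The study describes the MCT2 reduction as systemic in the host, so it was not limited to macrophages, and the implanted tumor cells were not targeted. No group received tamoxifen without Cre, so the effect of the drug and that of the deletion cannot be told apart. The sample records call the cells purified macrophages and give lung as their tissue, although by the methods they came from the flank.

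Classically activated macrophages, the state induced by interferon gamma and bacterial products, make nitric oxide and present antigen together with costimulatory signals to T cells. The nitric oxide comes from arginine through the inducible synthase *Nos2*. The costimulatory signals come from CD80 and CD86, which bind CD28 and CTLA-4 on T cells, and are raised when CD40 on the macrophage is engaged by CD40 ligand. CD86 is widely used as a surface marker of this state, often set against CD206 (*Mrc1*) as a marker of alternative activation. Tumor-associated macrophages commonly express genes of both states.

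Values of single libraries are given in the order of replicates 1, 2 and 3, and fold changes are of MCT2 KO over MCT2 CO with their standard error (SE). The targeted gene *Slc16a7* had 16, 11 and 11.2 CPM (counts relative to TMM-normalized library size) in MCT2 CO and 8.22, 4.97 and 5.34 in MCT2 KO, so every KO library was below every CO library. Total counts lay between 24863611 and 31713704, so that counting error matters mainly for the scarcest genes. Of 13 monocyte and macrophage markers, 12 passed the filter on low counts, and their summed level was 5680 to 7540 CPM in MCT2 CO and 6600 to 10700 in MCT2 KO. The gene of CD11b itself, *Itgam*, did not pass, and 99.1% of its exons lie inside the span of *Gm49368*, so its level was not read from its count. Counts are whole-preparation values, so a change in the share of a cell type and a change in RNA per cell cannot be told apart.

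*Nos2* and *Cd38* were higher in every MCT2 KO library than in every MCT2 CO library, by 6.06-fold and 2.33-fold in mean CPM. The costimulatory genes *Cd86*, *Cd80* and *Cd40*, and *Socs3*, *Irf5*, *Marcks* and *Slamf1*, overlapped between the groups. *Fpr2* could not be compared, because nearly all of its exons lie inside the span of a neighbouring gene. In edgeR's quasi-likelihood test, 0 of the 9 genes tested passed an adjusted p of 0.05 and a log2 fold change of 0.58, and neither did any of the 13485 genes tested (0%). At an unadjusted p under 0.05, 2 of the 9 were higher in MCT2 KO and 0 were lower, against 3.77% and 5.6% of all genes tested (9.37% together). An absolute log2 fold change of 0.58 or more was reached by the same 2, against 5.84% of all genes tested. By limma-voom 0 of the 9 passed, and by DESeq2 1 did over every gene with a count (0.448% of all genes) and 2 did over the genes kept by edgeR's filter (0.586%). The KO and CO libraries did not overlap in 2 of the 9, both with KO above, against 7.07% of all genes tested with KO above, 8.77% with KO below and 15.8% in either direction.

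**Figure D1:**
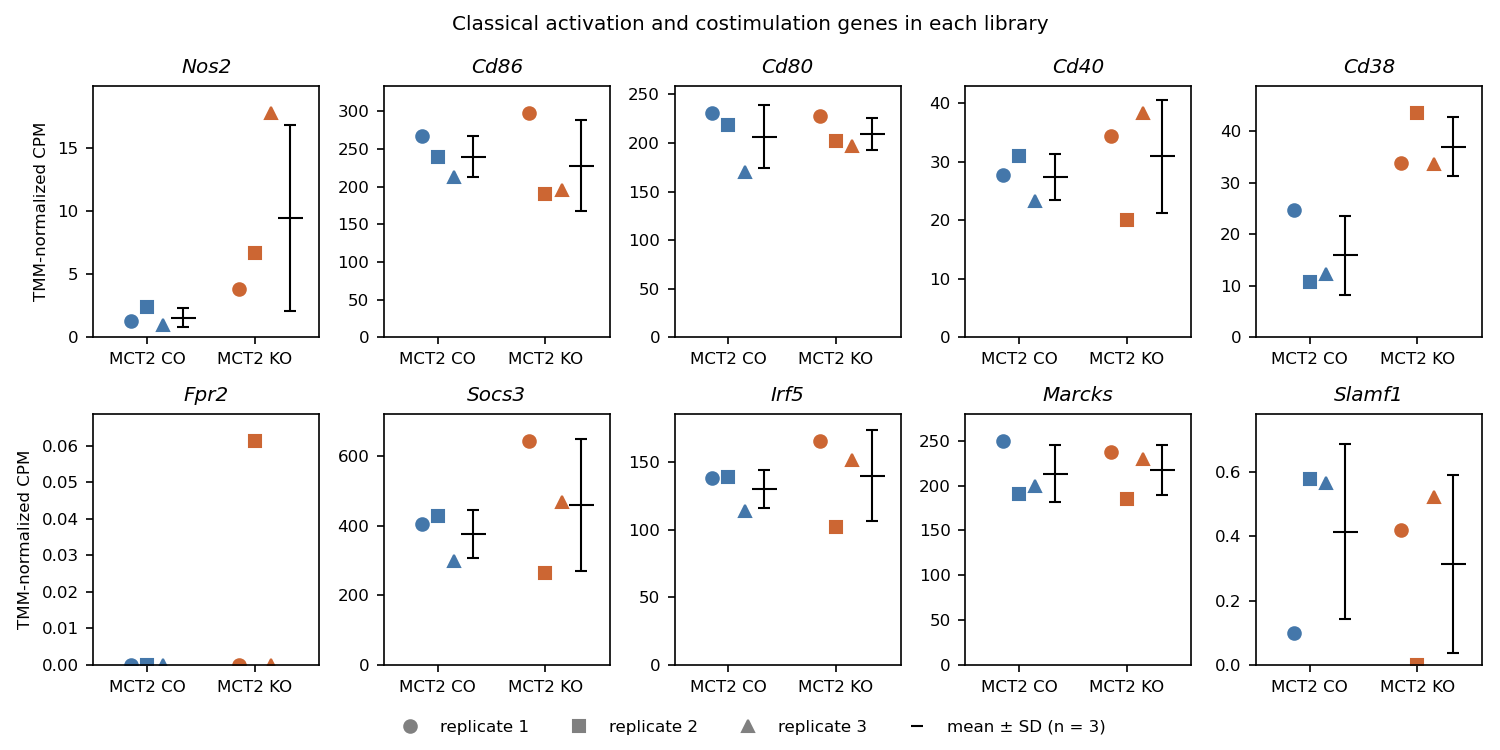
TMM-normalized CPM (vertical axes, linear, from 0) of the 10 genes in each MCT2 CO (blue) and MCT2 KO (orange) library, with the marker shape giving the replicate number and black bars the mean ± SD of 3 libraries (not drawn for *Fpr2*). Only in *Nos2* and *Cd38* do all 3 MCT2 KO libraries lie above all 3 MCT2 CO libraries.

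*Nos2* (ENSMUSG00000020826) lies on the plus strand of chromosome 11 of GRCm38 from 78920787 to 78960254 and has 29 exon blocks. It had 38, 63 and 26 counts in MCT2 CO and 92, 217 and 443 in MCT2 KO. In CPM this was 1.27, 2.42 and 0.978 in MCT2 CO and 3.86, 6.66 and 17.8 in MCT2 KO. The lowest KO library was thus above the highest CO library, and the highest KO library was well apart from the other two. The means were 1.56 ± 0.764 CPM (SD, n = 3) in MCT2 CO and 9.44 ± 7.37 in MCT2 KO, so that the SD in MCT2 KO was nearly as large as the mean. The log2 fold change was 2.60 (SE 0.59, 95% interval 1.23 to 3.97), the eighth highest of all genes tested (edgeR adjusted p = 0.370). Without MCT2 KO replicate 3 the log2 fold change of *Nos2* was 1.77, and without MCT2 CO replicate 2 it was 3.06. DESeq2's Wald test gave *Nos2* an adjusted p of 0.0501 over every gene with a count and 0.0486 on the genes kept by edgeR's filter, on either side of the threshold. The exact two-sided permutation test of the CPM gave p = 0.1, the smallest that 3 libraries against 3 allow.

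Neutrophils can also make *Nos2* transcripts, and their markers were measured in the same libraries. Of 14 neutrophil markers 10 were tested, 9 of them were higher in MCT2 KO, and in 6 the KO libraries lay above all CO libraries. Over all genes tested, the KO libraries lay above in 7.07%. The summed level of the 14 was 123, 114 and 133 CPM in MCT2 CO and 218, 123 and 157 in MCT2 KO. MCT2 KO replicate 1, with the highest neutrophil sum, had the lowest *Nos2* level of the KO libraries. The single-gene differences were large for some: *Ngp*, a granule protein, had the highest log2 fold change of all genes tested, 4.82 (SE 1.03), *Retnlg* had 2.35 (SE 0.43) and *S100a9* had 1.87 (SE 0.39). None was called by edgeR, and DESeq2 called 5 of the 14, against 0.448% of all genes with a count. *Camp*, *Ly6g*, *Elane* and *Mpo* were too low to be tested, and none of the 14 was at 0 in every library. The part of neutrophil RNA in the *Nos2* difference was not tested.

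Genes that supply or compete for arginine were examined beside *Nos2*. Of 14 genes on a nitric oxide and arginine list, 13 were tested, of which 8 were higher and 5 lower in MCT2 KO, with a median log2 fold change of 0.15 against 0 over all genes tested. None was called by edgeR, and DESeq2 called 1, against 0.448% of all genes with a count. The gene called was *Slc7a2*, a cationic amino acid transporter that imports arginine into macrophages. *Slc7a2* had 9.42 ± 1.18 CPM (SD, n = 3) in MCT2 CO and 17.3 ± 4.44 in MCT2 KO, a log2 fold change of 0.88 (SE 0.19, edgeR adjusted p = 0.370 and DESeq2 adjusted p = 0.00957). *Arg1*, the arginase that hydrolyses arginine to ornithine and urea and marks alternative activation, was also higher. It had 2.43, 1.81 and 2.45 CPM in MCT2 CO and 3.10, 10.5 and 3.13 in MCT2 KO, so the groups did not overlap but 1 KO library stood far above the rest. Its log2 fold change was 1.34 (SE 0.49, edgeR adjusted p = 0.489), and 0.48 without MCT2 KO replicate 2. The most highly expressed genes of the list differed less: *Odc1*, the first enzyme of polyamine synthesis, had a log2 fold change of -0.33 (SE 0.19) that was -0.07 without MCT2 CO replicate 3, and the transporter *Slc7a1* of -0.10 (SE 0.10).

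The ratio of *Nos2* to *Arg1* counts within a library does not depend on scaling between libraries. On the log2 scale it was -0.93, 0.42 and -1.31 in MCT2 CO and 0.31, -0.66 and 2.5 in MCT2 KO. The groups overlapped: the KO library richest in *Arg1*, replicate 2, had a ratio within the CO range, and the KO library richest in *Nos2*, replicate 3, had the highest ratio. The mean difference was 1.32 (exact permutation test, two-sided, p = 0.3).

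*Cd38* (ENSMUSG00000029084, chromosome 5 of GRCm38, plus strand, 43868553 to 43912375) encodes a surface enzyme that cleaves NAD and is used as a marker of classically activated mouse macrophages. It had 24.7, 10.8 and 12.2 CPM in MCT2 CO and 33.8, 43.6 and 33.7 in MCT2 KO. The 3 KO libraries lay close together, and CO replicate 1 was nearer to them than the other CO libraries were. The means were 15.9 ± 7.68 CPM (SD, n = 3) in MCT2 CO and 37.0 ± 5.72 in MCT2 KO, a log2 fold change of 1.22 (SE 0.30, 95% interval 0.53 to 1.90). Adjusted p values for *Cd38* were 0.380 by edgeR, 0.414 by limma-voom and 0.00692 by DESeq2 run on every gene with a count. Over fits without 1 library, *Cd38* stayed between log2 fold changes of 1.01, without MCT2 CO replicate 2, and 1.69, without MCT2 CO replicate 1. DESeq2 over every gene with a count called *Cd38* alone of the 10 genes, where 0.448% of all genes tested were called. On the genes kept by edgeR's filter it called *Cd38* and *Nos2*, against 0.586%. B cells also carry CD38, and their markers were measured in the same libraries. The summed B-cell marker level was 87.7, 99.8 and 102 CPM in MCT2 CO and 109, 30.7 and 119 in MCT2 KO. MCT2 KO replicate 2, the library with the lowest sum, had the highest *Cd38* level. The sum does not follow the single markers: of 10 tested, 8 were lower and 2 higher in MCT2 KO, with a median log2 fold change of -0.68. The part of B-cell RNA in the *Cd38* difference was not tested.

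Other genes of NAD and adenosine metabolism, not all of them of the cell surface, were examined beside *Cd38*. Of 14 listed genes 13 were tested, 9 were higher and 4 lower in MCT2 KO, and the median log2 fold change was 0.10. Of these, 4 had an unadjusted p under 0.05, all higher in MCT2 KO, against 3.77% of all genes tested, and none was called. *Bst1* (CD157), the paralog of *Cd38*, had 11.3 ± 1.63 CPM (SD, n = 3) in MCT2 CO and 16.6 ± 2.97 in MCT2 KO, a log2 fold change of 0.55 (SE 0.16, edgeR adjusted p = 0.429), with 14.3% of its exons inside the span of *Fbxl5*. *Nt5e* (CD73), which makes adenosine from AMP, had 20.9 ± 4.79 and 32.8 ± 5.80 CPM, a log2 fold change of 0.65 (SE 0.19, edgeR adjusted p = 0.426). In both genes the KO libraries lay above all CO libraries. The remaining genes at that level were *Entpd1* (CD39), with a log2 fold change of 0.44 (SE 0.19), and *Nmnat3*, an NAD-synthesizing enzyme, with 0.33 (SE 0.13). The most highly expressed genes of the list showed smaller differences, 0.10 (SE 0.11) for *Nampt*, which recycles nicotinamide, and -0.02 (SE 0.16) for *Parp14*.

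*Cd86* (ENSMUSG00000022901, chromosome 16 of GRCm38, minus strand, 36603869 to 36666081) had 267, 240 and 213 CPM in MCT2 CO and 298, 190 and 196 in MCT2 KO. The KO libraries included both the highest value and the lowest 2 values of the 6. The means were 240 ± 27.3 CPM (SD, n = 3) and 228 ± 60.8, a log2 fold change of -0.07 (SE 0.18, edgeR adjusted p = 0.920). The 95% interval ran from -0.49 to 0.34, inside the fold change threshold of 0.58 in both directions. Leaving out MCT2 KO replicate 1 gave -0.31, and leaving out MCT2 KO replicate 2 gave 0.04.

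*Cd80* (ENSMUSG00000075122, chromosome 16, plus strand, 38455561 to 38496335), the other B7 ligand of CD28, had 231, 219 and 170 CPM in MCT2 CO and 228, 202 and 197 in MCT2 KO. All KO libraries lay within the CO range. The log2 fold change was 0.01 (SE 0.13, 95% interval -0.28 to 0.31, edgeR adjusted p = 0.980).

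*Cd40* (ENSMUSG00000017652, chromosome 2, plus strand, 165055627 to 165072948), the receptor through which T cells license antigen-presenting cells, had 27.7, 31.0 and 23.2 CPM in MCT2 CO and 34.3, 20 and 38.3 in MCT2 KO. Replicates 1 and 3 of MCT2 KO were above all CO libraries and replicate 2 was below them. The log2 fold change was 0.17 (SE 0.23, 95% interval -0.35 to 0.70, edgeR adjusted p = 0.837), and 0.41 without MCT2 KO replicate 2.

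The study stained CD86 and CD206 at the surface of CD11b+ cells, and the transcripts of both were compared within each library. The log2 ratio of *Cd86* to *Mrc1* counts was 0.25, 0.50 and -0.08 in MCT2 CO and 0.01, -0.61 and 0.76 in MCT2 KO. The KO libraries held the lowest and the highest ratio. The mean difference was -0.17 (exact permutation test, two-sided, p = 0.8), and it turned to 0.16 without MCT2 KO replicate 2. *Mrc1* itself had 225, 169 and 224 CPM in MCT2 CO and 296, 289 and 115 in MCT2 KO, with a log2 fold change of 0.18 (SE 0.32).

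**Figure D2:**
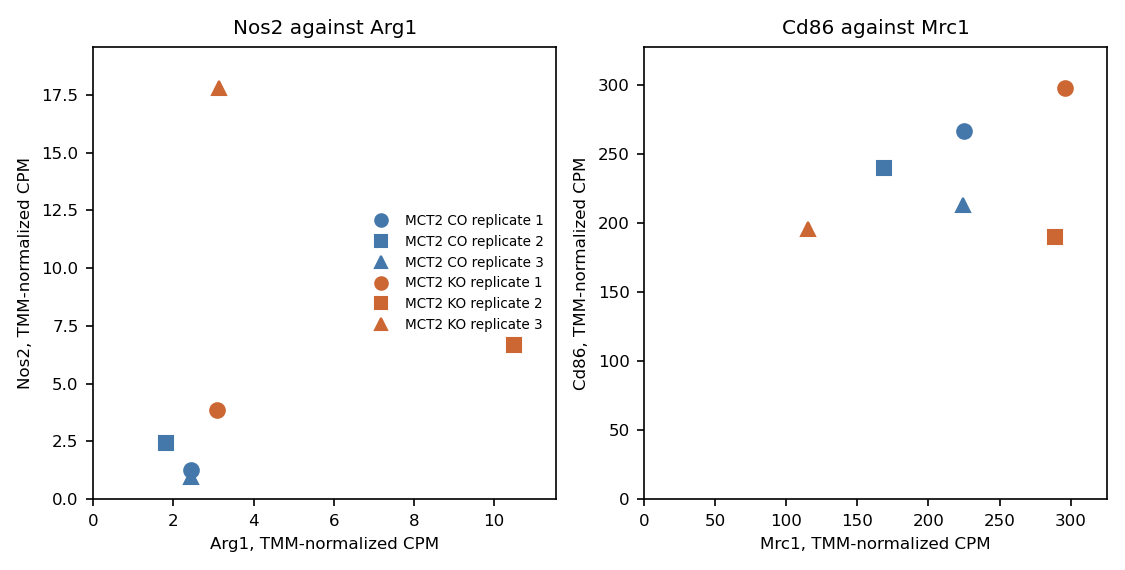
TMM-normalized CPM of *Nos2* against *Arg1* (left) and of *Cd86* against *Mrc1* (right), 1 point per library, with MCT2 CO in blue and MCT2 KO in orange and shapes for replicate numbers. MCT2 KO replicate 3 has the highest *Nos2* (17.8 CPM) and replicate 2 the highest *Arg1* (10.5 CPM), and the KO libraries lie around the CO libraries in the right panel.

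The rest of the B7 and CD28 list, which also holds *Tnfrsf14* from outside that family, gave few differences. Of 13 listed genes 12 were in the table and 10 were tested, with 6 higher and 4 lower in MCT2 KO, a median log2 fold change of 0.13 and 0 called. *Cd274*, which encodes the inhibitory ligand PD-L1, had 123 ± 34.7 CPM (SD, n = 3) in MCT2 CO and 209 ± 79.8 in MCT2 KO, a log2 fold change of 0.76 (SE 0.30, edgeR adjusted p = 0.506). *Tnfrsf14*, a receptor that binds the inhibitory receptor BTLA, had a log2 fold change of 0.56 (SE 0.21, edgeR adjusted p = 0.491). Both had an unadjusted p under 0.05, where 3.77% of all genes tested were higher, and in both the libraries of the groups overlapped. *Cd276* (B7-H3) had a log2 fold change of 0.36 (SE 0.16), with 11.4% of its exons inside the span of *Gm10657*.

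The CD40 signalling list, of TRAF adaptors, NF-kB subunits and their inhibitors, held 16 genes, of which 15 were tested. Of these, 4 were higher and 11 lower in MCT2 KO, the median log2 fold change was -0.08, and none had an unadjusted p under 0.05. The 2 with the largest differences were *Rel*, an NF-kB subunit, at -0.35 (SE 0.21), and *Traf5* at -0.20 (SE 0.10). The feedback inhibitors *Nfkbia* and *Tnfaip3*, the most highly expressed of the list, had log2 fold changes of 0.04 (SE 0.15) and -0.10 (SE 0.25). *Cd40lg*, the ligand, did not pass the filter on low counts.

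*Slamf1* (ENSMUSG00000015316, chromosome 1 of GRCm38, plus strand, 171767127 to 171801184), a self-binding receptor of lymphocytes and activated myeloid cells, was counted 3, 15 and 15 times in MCT2 CO and 10, 0 and 13 times in MCT2 KO. At such counts most libraries of a group cannot be ranked with any precision. The 95% limits of counting error for MCT2 KO replicate 2, 0 to 3.69 counts, did not overlap with those of the other KO libraries. The other KO libraries had limits of 4.8 to 18.4 (replicate 1) and 6.92 to 22.2 (replicate 3). A floor of 3 counts was 0.0921 CPM in MCT2 KO replicate 2, slightly below its upper limit of 3.69 counts. Both cover counting error only. The log2 fold change was -0.46 (SE 0.96, 95% interval -2.66 to 1.75), an interval too wide to exclude a difference of several-fold in either direction. The sign of the log2 fold change rested on MCT2 KO replicate 2, without which it was 0.22. Other SLAM family members and adaptors, on a list that also holds *Cd46* from outside the family, were better covered. Of 13 listed genes 11 were tested, 10 of them were higher in MCT2 KO with a median log2 fold change of 0.27, and 0 were called or had an unadjusted p under 0.05. The largest differences were in *Slamf8*, at 0.52 (SE 0.28), and *Cd244a*, at 0.38 (SE 0.23). The most highly expressed, *Slamf9* and *Cd84*, had log2 fold changes of 0.27 (SE 0.30) and 0.35 (SE 0.19). *Ly9* had 0 counts, and the span of *Cd244a* covers its exons fully.

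*Fpr2* (ENSMUSG00000052270) encodes a chemoattractant receptor for formylated and other peptides and is used as a marker of classical activation. Its place is chromosome 17 of GRCm38, plus strand, 17887824 to 17893952. *Fpr2* was given 0 counts in 5 libraries and 2 in MCT2 KO replicate 2. The span of *Fpr3*, on the same strand from 17887852 to 17971677, covers 97.8% of the *Fpr2* exons, and the table's length column holds whole gene spans, so the count of *Fpr2* cannot be read as its level. Of the genes in the pathway lists used here, 7 have at least 90% of their exons inside another gene's span, *Fpr2* among them, and the other 6 had 0 counts over all libraries: *Cxcl10* and *Cxcl11* (inside *Art3*), *Gpr18*, *Ly9*, *Myd88* and *Vsir*. The coding sequences of *Fpr2* and *Fpr3* in GENCODE M21, 1056 bases each, are identical at 88.2% of positions without a gap, and the longest identical run is 94 bases, so that some reads could match both. The first 150 coding bases are shown to give the closeness of the pair, with the 10 bases that differ in capitals.
Fpr2: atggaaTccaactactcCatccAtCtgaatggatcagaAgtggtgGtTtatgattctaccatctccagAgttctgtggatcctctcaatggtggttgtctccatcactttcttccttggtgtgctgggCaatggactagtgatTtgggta
Fpr3: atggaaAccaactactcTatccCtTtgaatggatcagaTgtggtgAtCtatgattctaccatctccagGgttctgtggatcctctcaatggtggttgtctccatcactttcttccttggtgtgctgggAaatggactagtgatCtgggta

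*Fpr1*, the related receptor that overlaps no other gene of the table, is the closest neighbour of the pair. Its coding sequence is 65.8% identical to that of *Fpr2*. It had 9.31, 5.92 and 4.03 CPM in MCT2 CO and 8.22, 6.75 and 14.4 in MCT2 KO, and the groups overlapped, with a log2 fold change of 0.60 (SE 0.36, edgeR adjusted p = 0.639). Without MCT2 KO replicate 3 the *Fpr1* value was 0.22, and without MCT2 CO replicate 1 it was 0.97. Of 13 genes listed as formyl peptide receptors, related chemoattractant receptors, ligands and signalling partners, 9 were tested. In all 9 the log2 fold change was above 0, with a median of 0.19, where 50.1% of all genes tested had one above 0. None was called, and 1 had an unadjusted p under 0.05, the complement receptor *C5ar1*, at 0.37 (SE 0.14, edgeR adjusted p = 0.497). The most highly expressed were *Gnai2*, a G protein subunit, at 0.19 (SE 0.10), and *Anxa1*, which encodes a ligand of FPR2, at 0.25 (SE 0.11).

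*Socs3* (ENSMUSG00000053113, chromosome 11 of GRCm38, minus strand, 117966079 to 117970047), an inhibitor of cytokine signalling through STAT3, had 404, 428 and 298 CPM in MCT2 CO and 644, 264 and 468 in MCT2 KO. The KO libraries again held both ends of the range. The means were 377 ± 68.9 CPM (SD, n = 3) and 459 ± 190, a log2 fold change of 0.28 (SE 0.29, 95% interval -0.39 to 0.96, edgeR adjusted p = 0.786). Without MCT2 KO replicate 1 it was -0.04, and without MCT2 KO replicate 2 it was 0.56. The family member *Socs1*, which restrains interferon gamma signalling, differed in the other direction. *Socs1* had 6.89 ± 0.708 CPM (SD, n = 3) in MCT2 CO and 3.66 ± 1.21 in MCT2 KO with no overlap, a log2 fold change of -0.92 (SE 0.26, edgeR adjusted p = 0.426). Whether *Socs1* and *Socs3* differ in their response was not tested. All 21 genes of the SOCS and cytokine receptor list were tested, 11 higher and 10 lower with a median log2 fold change of 0.01 and 0 called, and *Socs1* alone had an unadjusted p under 0.05. *Socs2* had a log2 fold change of -0.44 (SE 0.31), and the highly expressed *Jak1* of -0.01 (SE 0.08).

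*Irf5* (ENSMUSG00000029771, chromosome 6 of GRCm38, plus strand, 29526625 to 29541871), a transcription factor of inflammatory cytokine genes, had 138, 139 and 114 CPM in MCT2 CO and 166, 102 and 152 in MCT2 KO. As in *Cd40*, replicates 1 and 3 of MCT2 KO were above all CO libraries and replicate 2 below them. The log2 fold change was 0.10 (SE 0.18, 95% interval -0.31 to 0.51, edgeR adjusted p = 0.883). The span of *Tnpo3*, on the opposite strand, covers 14.3% of its exons, and reads there may be missing from its count. Of 13 other interferon regulatory factors and partners 11 were tested, 8 higher and 3 lower, with a median log2 fold change of 0.07 and none at an unadjusted p under 0.05. *Irf4*, which acts in alternative activation, was at -0.64 (SE 0.38). *Irf1*, an interferon gamma target that acts on *Nos2*, was at 0.49 (SE 0.38), and at -0.08 without MCT2 KO replicate 3. *Irf7* was at 0.01 (SE 0.25).

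*Marcks* (ENSMUSG00000069662, chromosome 10 of GRCm38, minus strand, 37133375 to 37138920), a protein kinase C substrate that links the actin skeleton to the membrane, had 250, 191 and 199 CPM in MCT2 CO and 237, 185 and 229 in MCT2 KO. The ranges of the groups nearly coincided. The log2 fold change was 0.02 (SE 0.14, 95% interval -0.29 to 0.34, edgeR adjusted p = 0.967). Of 14 genes on the list of its family and of protein kinase C, 13 were tested, 5 higher and 8 lower, with a median of -0.01. *Prkce* was lower in every KO library than in any CO library, at -0.33 (SE 0.11, edgeR adjusted p = 0.450), and *Prkcb* was at 0.40 (SE 0.19). The highly expressed *Actb* was at 0.17 (SE 0.11).

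**Figure D3:**
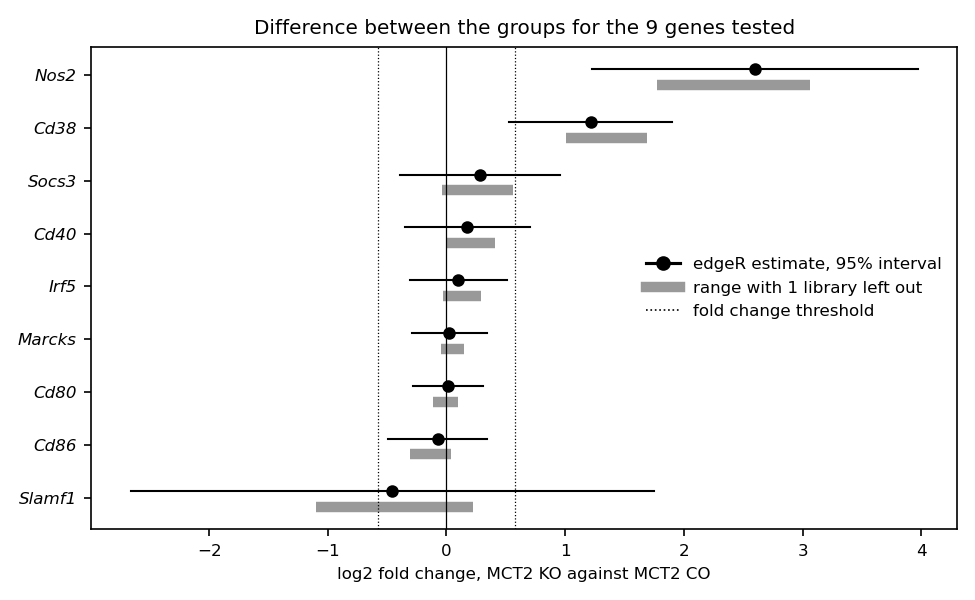
Log2 fold change of MCT2 KO against MCT2 CO (horizontal axis) for the 9 genes tested. Points with black lines are edgeR estimates with 95% intervals, grey bars the range with 1 library left out, and dotted lines the threshold of 0.58. The intervals of *Nos2* and *Cd38* lie above 0, those of *Cd86*, *Cd80*, *Irf5* and *Marcks* lie between the dotted lines, and that of *Slamf1* spans -2.66 to 1.75.

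The 10 genes differed widely in level. Per kilobase of exon in MCT2 CO, *Socs3* was highest at 130 ± 23.9 CPM per kb (SD, n = 3), followed by *Cd86* at 65.6 ± 7.38, *Cd80* at 55.8 ± 8.73, *Marcks* at 52.7 ± 7.91 and *Irf5* at 44.9 ± 4.87. The ranges of neighbours in this order overlapped from *Cd86* to *Irf5*, although *Cd86* lay above *Irf5* with no overlap and above *Cd80* in 3 of 3 libraries. *Cd40* at 8.02 ± 1.15, *Cd38* at 4.09 ± 1.97, *Nos2* at 0.353 ± 0.173 and *Slamf1* at 0.0672 ± 0.0441 followed with no overlap between neighbours. In MCT2 KO the order was the same except that *Cd38*, at 9.52 ± 1.46 CPM per kb, and *Cd40*, at 9.06 ± 2.82, changed places and overlapped. *Nos2* thus remained at a low level in MCT2 KO, 2.14 ± 1.67 CPM per kb, below *Cd40* in all KO libraries. Lengths are those of all annotated exons, whereas gene lengths in the count table are those of whole spans, so intronic reads may be included.

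The extreme values of these genes fell unevenly over the libraries. MCT2 KO replicate 2 was the lowest of the 6 libraries in 6 of the 9 genes tested, namely *Cd86*, *Cd40*, *Socs3*, *Irf5*, *Marcks* and *Slamf1*, and the highest in *Cd38*. Over all genes tested it was the lowest in 22.7%. MCT2 KO replicate 1 was highest in 3, *Cd86*, *Socs3* and *Irf5*, against 20.4% over all genes, and lowest in 0. The spread of log2 CPM within the group was larger in MCT2 KO than in MCT2 CO in 6 of the 9, against 53% of all genes tested, and it was smaller in *Cd38*, *Cd80* and *Marcks*. MCT2 KO replicate 2 also had the lowest summed marker levels of the 6 libraries for B cells, T cells (32.4 CPM against 64.9 to 125 in the others), dendritic cells (857 CPM), endothelial cells (97.1 CPM), mast cells and basophils (17.5 CPM) and the dissociation response (14300 CPM). MCT2 KO replicate 1 had the highest sums of monocyte and macrophage markers (10700 CPM) and dendritic cell markers (1450 CPM). The part of these cells in the levels of the 9 genes was not tested.

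**Figure D4:**
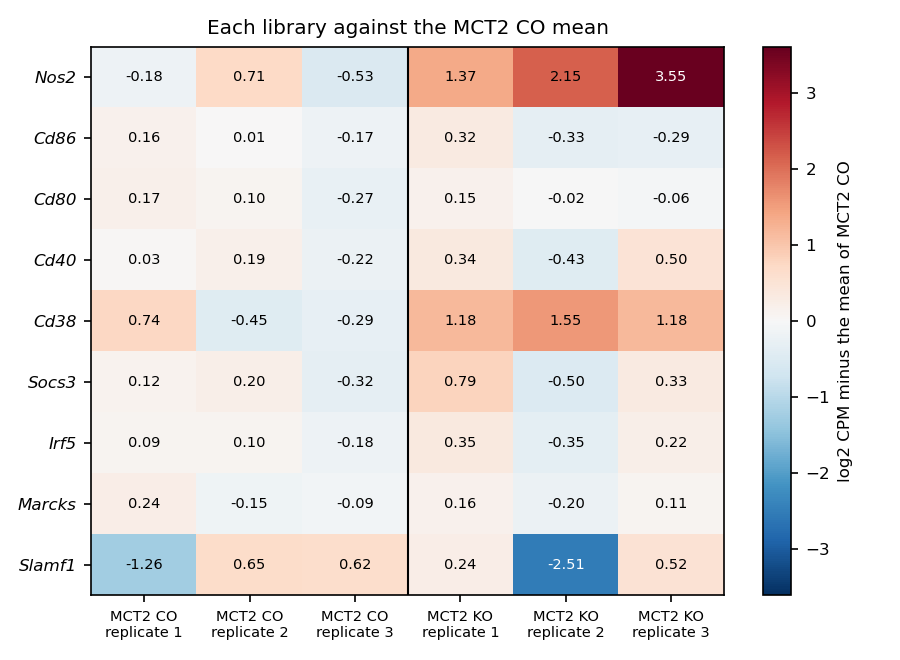
Log2 CPM of each library (columns) minus the mean of the MCT2 CO libraries for the 9 genes tested (rows), with the value printed in each cell and red for above and blue for below that mean. In the MCT2 KO columns *Nos2* runs from 1.37 to 3.55 and *Cd38* from 1.18 to 1.55, while replicate 2 is at -0.50 for *Socs3* and -0.43 for *Cd40*.

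A list of 25 further genes of classical activation, among them cytokines and chemokines, had 20 tested. Of these, 13 were higher and 7 lower in MCT2 KO, and the median log2 fold change was 0.08, against 0.10 over the 9 genes and 0 over all genes tested. None was called, and 2 had an unadjusted p under 0.05, both higher in MCT2 KO: *Tlr4*, the receptor of lipopolysaccharide, at 0.31 (SE 0.09, edgeR adjusted p = 0.429), and *Il18*, at 0.36 (SE 0.15, edgeR adjusted p = 0.521). The spans of *Bco2* and *Tex12* cover 14.6% of the *Il18* exons. The largest differences were in *Cxcl9*, an interferon gamma-induced chemokine, at 0.65 (SE 0.57), and *Il1a*, at 0.57 (SE 0.31), and both overlapped between the groups. *Cxcl9* was at -0.04 without MCT2 KO replicate 3. The most highly expressed, *Ptgs2* (cyclooxygenase-2) and *Il1b*, had log2 fold changes of -0.02 (SE 0.11) and -0.02 (SE 0.30).

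Of 20 genes of alternative activation, 18 were tested, with 13 higher and 5 lower, a median log2 fold change of 0.25 and 0 called. An unadjusted p under 0.05 was reached by 3 in each direction, against 3.77% higher and 5.6% lower over all genes tested. Higher in MCT2 KO were *Arg1*, already given, *Chil3* (Ym1) at 0.98 (SE 0.36) and *Folr2* at 1.11 (SE 0.37). Lower were *Lyve1* at -1.13 (SE 0.46), the transcription factor *Egr2* at -0.52 (SE 0.16) and *Myc* at -0.38 (SE 0.15). *Egr2* and *Myc* are used as markers of alternative activation opposite *Cd38* and *Fpr2*. The most highly expressed, *Stab1* and *Il4ra*, were at 0.50 (SE 0.26) and 0.09 (SE 0.14). Over the 6 genes the edgeR adjusted p ran from 0.429 to 0.520.

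**Figure D5:**
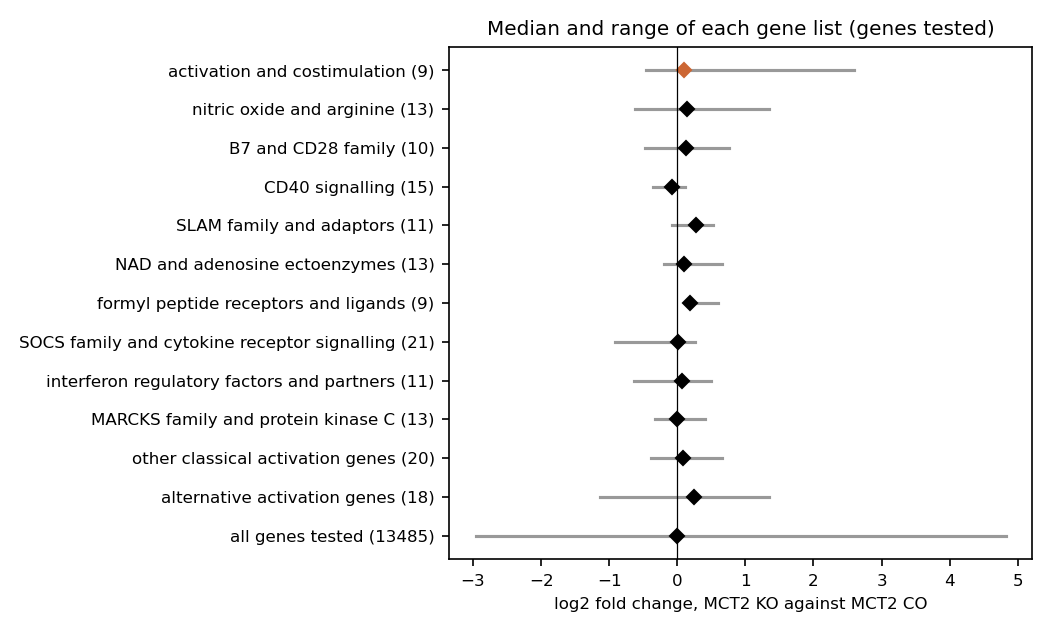
Median (diamond) and full range (line) of the log2 fold change of MCT2 KO against MCT2 CO over each pathway list, with the number of genes tested in parentheses and the 9 genes in orange. The medians of the pathway lists lie between -0.08 (CD40 signalling) and 0.27 (SLAM family), and the median of all 13485 genes tested is 0. The list labelled NAD and adenosine ectoenzymes also holds genes that are not of the cell surface.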

How the data were processed

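Raw read counts per gene of 3 MCT2 CO and 3 MCT2 KO libraries of CD11b+ cells were analysed. Per the submitters' processing notes, the tools were FastQC 0.12.0, MultiQC 1.28, STAR 2.7.11b and featureCounts 2.1.1 with GRCm38, from stranded poly-A libraries. The authors deposited counts of 25701 genes, neither normalized nor pooled. Annotation, feature type and strand setting are not given in the sources used here. Table positions match GENCODE M21 on GRCm38 for 2.2% of 25594 shared identifiers and span lengths for 98.1%, so printed positions, exon lengths and overlaps are those of GENCODE M21.

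Counts kept by filterByExpr (minimum count 10, total 15; 13485 genes) were TMM-normalized and tested by edgeR 4.0.16 quasi-likelihood (R 4.3.3) without covariates, with Benjamini–Hochberg adjustment over these genes. A gene was called where its adjusted p did not exceed 0.05 and its log2 fold change reached 0.58 in either direction. Ratios used an offset of 0.5 counts. Alternatives were DESeq2 1.42.0 (the authors' tool), limma-voom 3.58.1, other scalings and filters, a replicate block and each library left out. The procedure was tested on simulated data. Nothing in the labels says that replicates are separate mice, so p-values measure the spread between these libraries, which may be technical. No 2 libraries of a group agreed within sampling noise. The 10 genes, the gene lists and the naming rule (targeted gene; per list the 2 largest differences and 2 highest levels; DESeq2 calls) were chosen with earlier results of these data known. Genes also named at an unadjusted p under 0.05 or for not overlapping were chosen after their values were seen. Some genes that the naming rule picks are not reported here.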

Additional observations from a re-analysis of the deposited data

How the results depend on the processing

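The edgeR quasi-likelihood test called 0 genes, and 0 of the 10 described, under DESeq2 size factors, upper-quartile factors and a minimum count of 50, as did limma-voom. On all genes with at least 1 count edgeR called 2 genes, neither among the 10, and with each library left out it called 0 to 2 (2 without MCT2 KO replicate 2) and 0 of the 10. DESeq2 called 83 genes and 1 of the 10 on all genes with at least 1 count, 79 and 2 on the genes kept, and 95 and 2 with its independent filtering set to 0.05, an alternative chosen after seeing the data. Replicate numbers are those of the sample titles. Same-numbered libraries of the groups correlated in their deviations from the group means at 0.22, -0.25 and -0.16, so these numbers did not consistently pair the libraries. The library names number the MCT2 KO libraries otherwise. By name, C2 and T2 (MCT2 CO replicate 2, MCT2 KO replicate 1) correlated at 0.06, and C3 and T3 (MCT2 CO replicate 3, MCT2 KO replicate 2) at 0.29. A pairing by library name was not tested. The fit with a replicate block called 0 genes and 0 of the 10, with log2 fold changes of 2.36 for *Nos2* and 1.30 for *Cd38*. The ratio differences of -0.17 (*Cd86* to *Mrc1*) and 1.32 (*Nos2* to *Arg1*) cannot change with a block. Each replicate number occurs once per group, so a block is no check on them. With each library left out, the ratio differences ranged from -0.52 to 0.16 and from 0.43 to 2.01. Some log2 fold changes changed sign in the same way, among them values as large as 0.65 (*Cxcl9*), 0.49 (*Irf1*) and -0.46 (*Slamf1*) with all libraries: *Cd86* -0.31 to 0.04, *Cd80* -0.11 to 0.10, *Cd40* 0.00 to 0.41, *Socs3* -0.04 to 0.56, *Irf5* -0.03 to 0.29, *Marcks* -0.05 to 0.15, *Slamf1* -1.10 to 0.22, *Nfkbia* -0.11 to 0.14, *Tnfaip3* -0.42 to 0.12, *Parp14* -0.16 to 0.14, *Jak1* -0.04 to 0.02, *Irf1* -0.08 to 0.80, *Irf7* -0.22 to 0.25, *Cxcl9* -0.04 to 1.09, *Ptgs2* -0.06 to 0.04, *Il1b* -0.41 to 0.25 and *Il4ra* -0.05 to 0.21. *Jak1* also turned to 0.01 or 0.00 under DESeq2, DESeq2 size factors and no filter, and *Irf7* to -0.03 under limma-voom and -0.04 under the replicate block. The cause was not tested. Depth limits *Slamf1* most of the 9 genes tested, at 0 to 15 counts a library.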

Other observations

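Markers of cell types other than macrophages were measured by their summed levels. Fibroblast markers were the only list of the 11 whose sums did not overlap, at 2080 to 3430 CPM in MCT2 CO and 1740 to 1850 in MCT2 KO, with 8 of 10 genes lower in MCT2 KO (two-sided exact permutation p = 0.1, as low as the design allows). Dendritic cell markers summed to 864 to 1190 CPM in MCT2 CO and 857 to 1450 in MCT2 KO. NK-cell markers summed to 62.7 to 106 and 71.8 to 143, and B-cell markers to 87.7 to 102 and 30.7 to 119. Among the 10 NK-cell markers tested, 4 were higher and 6 lower in MCT2 KO, with a median log2 fold change of -0.18. All KO libraries lay below all CO libraries in 4 (*Klra8* at -1.13, *Gzma* at -1.09, *Klrb1c* at -0.70 and *Ncr1* at -0.51) and above them in 0. Over all genes tested the shares were 8.77% below and 7.07% above. An unadjusted p under 0.05 was reached by 1 higher NK-cell marker (*Prf1*) and 2 lower ones, edgeR called 0, and DESeq2 called 1. At that p, 3.77% of all genes tested were higher and 5.6% lower, and DESeq2 called 0.448% of all genes with a count. Of 10 B-cell markers tested 8 were lower in MCT2 KO, with a median log2 fold change of -0.68. In 3 of them all KO libraries lay below all CO libraries (*Cd79a* at -2.02, *Blk* at -1.87 and *Ms4a1* at -1.36), against 8.77% of all genes tested. For B-cell markers edgeR called 0, and DESeq2 called 2 of the 12 listed, against 0.448% of all genes with a count. T-cell markers summed to 64.9 to 94.0 and 32.4 to 125, mast cell and basophil markers to 23.2 to 32.8 and 17.5 to 31.7, and endothelial markers to 116 to 125 and 97.1 to 165. Epithelial and tumor cell markers summed to 14.1 to 21.1 CPM in MCT2 CO and 18.9 to 33.7 in MCT2 KO, with *Krt14* at 0 in every library. Dissociation response genes summed to 16900 to 19900 and 14300 to 17300 CPM, with 15 of 17 genes lower in MCT2 KO. Of the 17, 7 were lower at an unadjusted p under 0.05, against 5.6% of all genes tested. In 6 all KO libraries lay below all CO libraries, against 8.77%. The part of these lists in the levels of the activation genes was not tested.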
